A study of Drosophila melanogaster and Drosophila simulans with 21 samples.

Results

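In 82 of 4753 genes and unnamed array positions, RNA of adult females differed between the parental species D. simulans and D. melanogaster while hybrid females lay between them. Members were chosen by their measured values. The mean log2 difference of D. simulans from D. melanogaster had to be at least 0.5 in size, and the hybrid had to lie between the parents and more than 0.2 on the log2 scale from each. The sizes selected 84, and the rule leaves 2 of these out by name. A feature needed at least 4 values in each pair, and 71 of the 82 members had values on all 18 arrays. Of the 82 members, 22 carried a single gene symbol and 60 were positions without one, which are counted but not named. Since the parental and hybrid differences defined the members, they are described here without tests.

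The groups were hybrid daughters of D. melanogaster Canton S mothers and D. simulans Sim-1 fathers, females of the D. simulans strain Sim-1, and females of the D. melanogaster strain Canton S. Parental females were virgins. Stocks lived at 25 C and crosses at 18 C, each with 7 to 8 males and as many females, and the collected females were kept for 5 to 6 days at room temperature. RNA of 2 cohorts per cross was mixed into 1 pool per strain, and the pools were compared as labelled cDNA on spotted 2-colour arrays, which read the ratio of both cDNAs at each probe. The 21 arrays comprised 6 for each of the 3 pairs, with channels exchanged on 3 of the 6, and 3 with the same RNA in both channels. With 1 pool per strain the arrays are technical repeats, so SDs and p-values reflect the scatter of arrays alone, and a difference between strains cannot be told apart from a difference between pools. In whole flies, fewer cells of a type and less RNA per cell cannot be told apart either.

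The labels do not name the numerator of the deposited ratio, which was read as channel 1 over channel 2. In the other reading every log2 difference below turns its sign and keeps its size, and membership and hybrid position are the same. Distances from the arithmetic mean of the parents do depend on the reading. Whether a probe binds D. simulans cDNA less well than D. melanogaster cDNA, because of sequence differences, was not tested. A ratio gives no level, so tissue markers could not be checked by level. Differences are relative to the median position of each array. An array held 4657 to 4946 values, and the SD of its log2 ratios was 0.209 to 0.215 on the 3 arrays with 1 RNA, 0.434 to 0.763 for D. simulans against D. melanogaster, 0.895 to 1.18 for the hybrid against D. melanogaster and 0.979 to 1.25 for the hybrid against D. simulans.

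An interspecific hybrid female carries a copy of each parental genome, the X chromosome included. When each copy is expressed as in its own species, the hybrid total lies at the mean of the parents on a linear scale, which is called additive. Expression at the level of a single parent is called dominance, and expression outside the parental range is called transgressive. These terms describe a level and not its cause.

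An intermediate hybrid was a minority outcome. The parents differed by at least 0.5 in 808 features, and the hybrid lay between them by the size rule in 84 of these, or 10.4%. The rule found 1.77% of all features tested. The hybrid was within 0.2 of D. simulans in 93 features and within 0.2 of D. melanogaster in 74. It lay outside the parental range in most of the rest, beyond D. simulans in 344 and beyond D. melanogaster in 210. The other 3 fell in none of these classes, and in 2 of them the hybrid was within 0.2 of both parents.

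**Figure D1:**
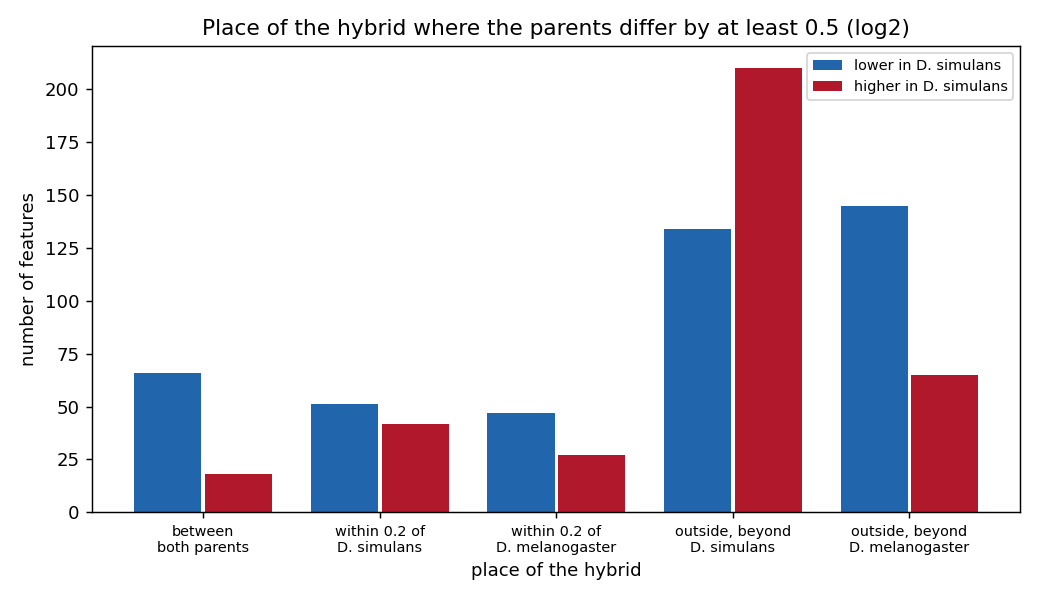
Number of features (y axis) by place of the hybrid (x axis) among those whose parents differ by at least 0.5 on the log2 scale, drawn apart for features lower (blue) and higher (red) in D. simulans. The between class, here including the 2 genes left out, holds 66 lower and 18 higher features. A hybrid outside the range has 134 and 210 beyond D. simulans, and 145 and 65 beyond D. melanogaster.

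Members were mostly lower in D. simulans. There were 64 lower members, against 1.39% of all features found by the rule in that direction, and 18 higher members, against 0.379%. Lower features thus made up 78.0% of members and 54.8% of all 808 features with differing parents. The other classes varied in this share. It was 69.0% for a hybrid beyond D. melanogaster and 63.5% for a hybrid within 0.2 of D. melanogaster. It was 54.8% for a hybrid within 0.2 of D. simulans and 39.0% for a hybrid beyond D. simulans. The parental difference of members had a median size of 0.996 on the log2 scale, with a range of 0.506 to 2.92, and the median over all 808 was 0.691. A gap of more than 0.2 on both sides needs room between the parents, which favours large parental differences by construction. The parents differed at least 2-fold in 40 members and at least 4-fold in 9.

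The hybrid stood at many places between the parents. Its position is the log2 difference of hybrid from D. melanogaster divided by that of D. simulans from D. melanogaster, so that 0 is the D. melanogaster level and 1 the D. simulans level. The median position of the 82 members was 0.547, with quartiles of 0.382 and 0.731 and a range of 0.129 to 0.984. The position was below 1/3 in 9 members, from 1/3 to 2/3 in 45 and above 2/3 in 28. The median was 0.536 for lower members and 0.644 for higher members. The rule used the same values and shuts out a hybrid within 0.2 of a parent. Where the parents differ little, it thus favours middle positions by construction, so nothing is read from these counts. Scaling all arrays to a common spread widens the parental arrays and narrows the hybrid ones, and the median position of the same 82 was then 0.204. Under that scaling 58 features met the rule, 53 of them among the 82.

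**Figure D2:**
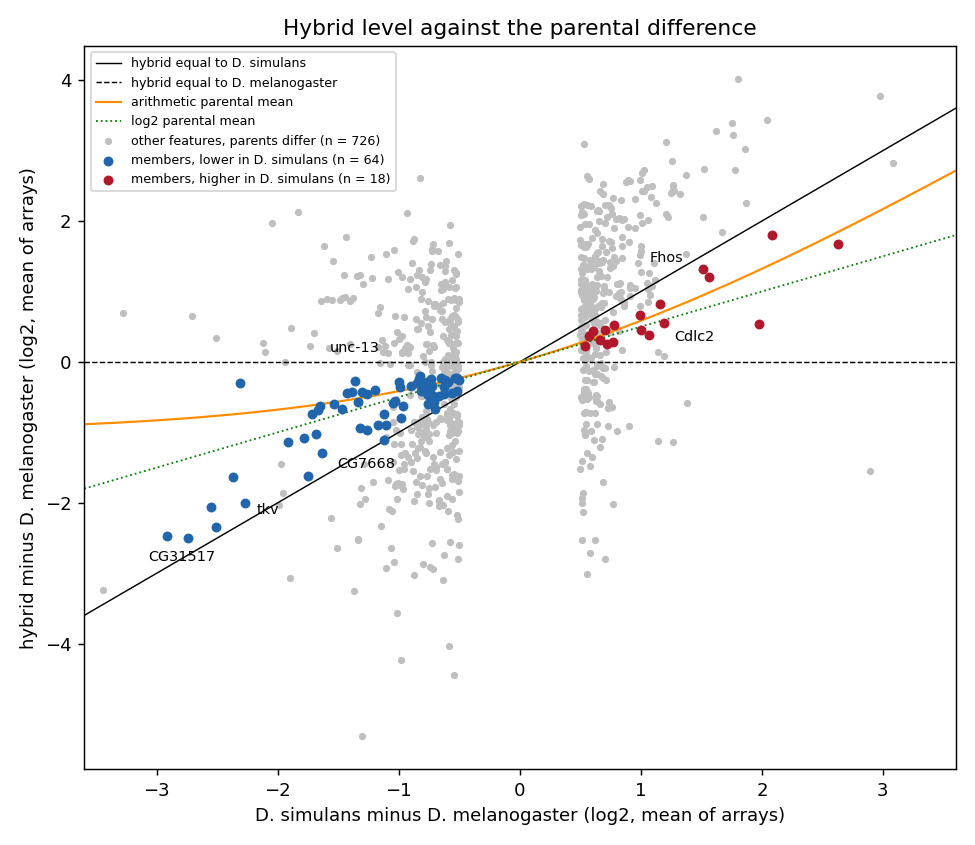
Hybrid minus D. melanogaster (y axis) against D. simulans minus D. melanogaster (x axis), both as log2 means over arrays, for 64 members lower in D. simulans (blue), 18 higher (red) and the 726 other features with differing parents (grey, including the 2 genes left out). Lines mark a hybrid equal to D. simulans, equal to D. melanogaster, at the arithmetic parental mean (for channel 1 over channel 2) and at the log2 mean, and all members lie between the first and the second of these. Cdlc2, Fhos, tkv, unc-13, CG7668 and CG31517 are labelled.

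Cdlc2 (CG5450, chromosome 2L) is the gene that marks the class. It encodes a light chain of dynein, the motor that carries cargo along microtubules toward their minus ends, and its product is nearly identical in protein to that of ctp. The difference of D. simulans from D. melanogaster had a lowest value of 0.65, a median of 1.19 and a highest value of 2.05 over 6 arrays. All 6 arrays placed Cdlc2 higher in D. simulans, with a mean of 1.19 ± 0.52 (SD, n = 6 arrays), or 2.28-fold. The hybrid differed from D. melanogaster by 0.55 ± 0.67 (SD, n = 6), with a lowest value of -0.39, a median of 0.75 and a highest of 1.31. It differed from D. simulans by -0.39 ± 0.48 (SD, n = 6), with a lowest value of -0.87, a median of -0.47 and a highest of 0.30. In 2 of 6 arrays the hybrid was below D. melanogaster and in 2 of 6 above D. simulans, so both gaps were smaller than the spread between arrays.

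The mean place of Cdlc2 in the hybrid differed between the numbers in the array titles, which fall into the sets 1 to 8 and 14 to 18. The labels do not say what the numbers stand for. Against D. melanogaster the hybrid averaged 0.98 in numbers 1 to 8 (n = 3, 0.62 to 1.31) and 0.12 in numbers 14 to 18 (n = 3, -0.39 to 0.87). In the second set the array at 0.87, inside the range of the first, carried the hybrid in channel 2. The other 2, at -0.39 and -0.13, carried it in channel 1. In the first set channel 1 gave 1.31, and channel 2 gave 0.62 and 1.00. Against D. simulans the hybrid averaged -0.15 in numbers 1 to 8 (n = 4, -0.61 to 0.30) and -0.86 in numbers 14 to 18 (n = 2, -0.87 and -0.84). These 2 arrays carried the hybrid in channel 1. In numbers 1 to 8 only 1 array of this pair did so, at -0.33, so title set and channel can hardly be told apart there. The mean positions were 0.657 and 0.130. In neither set alone did Cdlc2 meet the size rule. It also missed the rule with the first-named RNA in channel 2, where the hybrid differed from D. simulans by -0.09. It met the rule in all 18 analyses that left out 1 array, with positions of 0.331 to 0.616. The higher level in D. simulans than in D. melanogaster held in both title sets, at 1.48 in numbers 1 to 8 and 0.89 in numbers 14 to 18. The intermediate hybrid level rested on the 2 sets together.

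Few other genes of the dynein motor and its dynactin partner could be set beside Cdlc2. Of 33 listed genes, 5 were measured, and Cdlc2 was the only member among them. The other 4 were ctp, DCTN3-p24, cpa and nudE. In D. simulans against D. melanogaster, 0 of these 4 were higher and 1 was lower by limma's joint fit at an adjusted p of 0.05, against 23.2% and 23.5% of all features. In the hybrid against D. melanogaster 0 were higher and 2 lower, against 42.0% and 41.8%, and in the hybrid against D. simulans 0 were higher and 1 lower, against 41.5% and 40.8%. The median differences of the 4 were 0.01, -0.26 and -0.10, and those of all features were 0.02, 0.02 and 0.02.

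The dynein light chain ctp went the other way from Cdlc2. It fell in D. simulans against D. melanogaster by a fitted log2 difference of -0.67 ± 0.13 (SE, limma adjusted p = 0.00024), with array values averaging -0.77 ± 0.31 (SD, n = 6). In the hybrid against D. melanogaster it fell by a fitted -0.91 ± 0.13 (SE), and in the hybrid against D. simulans its fitted difference was -0.24 ± 0.13 (SE, limma adjusted p = 0.0866). The gap of the hybrid to D. simulans thus did not pass the test. With arrays scaled to a common spread, the mean ctp difference from D. melanogaster was -0.56 in the hybrid and -1.34 in D. simulans, which would place the hybrid between the parents, while the direct hybrid difference from D. simulans was -0.28. The place of ctp in the hybrid relative to D. simulans was therefore not settled. Whether ctp transcripts bind the Cdlc2 probe, or Cdlc2 transcripts the ctp probe, was not tested. The capping protein gene cpa was lower in the hybrid than in D. melanogaster, at a fitted -0.43 ± 0.06 (SE), and lower than in D. simulans, at -0.37 ± 0.06 (SE). DCTN3-p24, a dynactin subunit, averaged 0.10 for D. simulans against D. melanogaster, and nudE, a dynein regulator, averaged 0.03.

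Among members higher in D. simulans, Fhos had the largest difference of those with a symbol. Fhos (CG42610, chromosome 3L) encodes a formin, a protein that assembles actin filaments. D. simulans exceeded D. melanogaster by 1.52 ± 0.36 (SD, n = 6), or 2.86-fold, with a lowest value of 1.16, a median of 1.42 and a highest of 1.98. The hybrid exceeded D. melanogaster by 1.32 ± 0.60 (SD, n = 6), with a lowest value of 0.61, a median of 1.31 and a highest of 2.00. Both sets of 6 arrays lay wholly above 0. Against D. simulans the hybrid averaged -0.30 ± 0.58 (SD, n = 6), with a lowest value of -1.17, a median of -0.36 and a highest of 0.39. That gap was smaller than its spread, and 2 of 6 arrays placed the hybrid above D. simulans. These were the 2 arrays with title numbers 14 to 18, at 0.29 and 0.39, both with the hybrid in channel 1. In numbers 1 to 8 the hybrid averaged -0.62 against D. simulans (n = 4, -1.17 to -0.36). Fhos missed the rule in numbers 14 to 18. It also missed it with the first-named RNA in channel 1, where the hybrid differed from D. simulans by 0.03. The annotation gave Fhos 2 probes, of which 1 held no value on any array.

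The other members of this direction with a symbol served protein synthesis or turnover, or had no role given here. Pomp (chromosome 2L) encodes a proteasome maturation factor, and D. simulans exceeded D. melanogaster by 0.78 ± 0.07 (SD, n = 6), the hybrid exceeding D. melanogaster by 0.53 ± 0.18 (SD, n = 6). For eIF3m (chromosome 2R), a subunit of a translation initiation factor, these differences were 0.72 ± 0.28 and 0.26 ± 0.46 (SD, n = 6 each). Pomp stood nearer D. simulans, at a position of 0.68, and eIF3m nearer D. melanogaster, at 0.36. Against D. simulans the hybrid averaged -0.25 ± 0.42 for Pomp (lowest -0.99, highest 0.28) and -0.31 ± 0.16 for eIF3m (SD, n = 6 each). Pomp missed the rule without replicate 4 of this pair. It also missed it with the first-named RNA in channel 2, where the difference was 0.007. The eIF3m position was 0.77 with the first-named RNA in channel 1 and 0.02 with it in channel 2. CG4199 (chromosome X) had a parental difference of 0.99 ± 0.17 and a hybrid position of 0.67, and brwl (chromosome 2L) had 0.53 ± 0.29 and 0.42 (SD, n = 6 each). The hybrid differed from D. simulans by -0.38 ± 0.66 for CG4199 (lowest -1.21, highest 0.57) and -0.41 ± 0.14 for brwl (SD, n = 6 each). In brwl the hybrid differed from D. melanogaster by only 0.22 ± 0.26 (SD, n = 6, lowest -0.11, highest 0.49). In title numbers 14 to 18 that difference averaged 0.02 (n = 3). With 1 array left out, brwl met the rule in 13 of 18 analyses, and it did so in 4 of 9 other settings. The 12 members of this direction without a symbol reached a parental difference of 2.63.

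Among members with a symbol that were lower in D. simulans, CG31517 and tkv had the largest parental differences. CG31517 (chromosome 3R) differed in D. simulans from D. melanogaster by -2.74 ± 0.33 (SD, n = 6), a 6.69-fold difference, with a lowest value of -3.05, a median of -2.83 and a highest of -2.26. The hybrid differed from D. melanogaster by -2.50 ± 0.47 (SD, n = 6), with values between -3.08 and -1.83 and a median of -2.64. It was above D. simulans by 0.40 ± 0.31 (SD, n = 6), with a lowest value of 0.01, a median of 0.42 and a highest of 0.81. All 18 arrays kept the order of the means. The 2 arrays against D. simulans with title numbers 14 to 18 put the hybrid near the D. simulans level, at 0.09 and 0.01. Both carried the hybrid in channel 1. In numbers 1 to 8 the hybrid averaged 0.57 above D. simulans (n = 4, 0.42 to 0.81). CG31517 missed the rule in numbers 14 to 18. It also missed it with the first-named RNA in channel 1, where the hybrid exceeded D. simulans by 0.17. Its position was 0.91.

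The gene tkv (chromosome 2L) encodes a type I receptor for the BMP ligand Dpp, a signal used in egg chamber and wing patterning. D. simulans differed from D. melanogaster by -2.27 ± 0.44 (SD, n = 6), or 4.82-fold, with a lowest value of -2.61, a median of -2.37 and a highest of -1.44. The hybrid differed from D. melanogaster by -2.01 ± 0.58 (SD, n = 6), with a lowest value of -2.67, a median of -1.92 and a highest of -1.44. The hybrid exceeded D. simulans by 0.35 ± 0.17 (SD, n = 6), with a lowest value of 0.19, a median of 0.32 and a highest of 0.63. Every array kept the order of the means, and the hybrid position was 0.88. Against D. melanogaster the hybrid averaged -2.53 in title numbers 1 to 8 (n = 3, -2.67 to -2.32). In numbers 14 to 18 it averaged -1.49 (n = 3, -1.52 to -1.44). The parental difference moved as well, from -2.55 in numbers 1 to 8 to -1.99 in numbers 14 to 18 (n = 3 each). In numbers 1 to 8 the hybrid was thus near D. simulans when both were set against D. melanogaster. Directly it exceeded D. simulans by 0.42 there (n = 4). In numbers 14 to 18 the hybrid exceeded D. simulans by 0.19 (n = 2), and tkv missed the rule there.

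CG7668 and CG17450 were also lower in D. simulans, with the hybrid nearer the middle. CG7668 (chromosome 3L) differed in D. simulans from D. melanogaster by -1.63 ± 0.10 (SD, n = 6), with a lowest value of -1.73, a median of -1.67 and a highest of -1.47. Its hybrid differed from D. melanogaster by -1.30 ± 0.43 (lowest -1.96, median -1.28, highest -0.69) and from D. simulans by 0.37 ± 0.19 (lowest 0.08, median 0.37, highest 0.68) (SD, n = 6 each). All 18 arrays had the sign of their mean. CG17450 (chromosome X) gave -1.32 ± 0.23 between the parents (lowest -1.64, median -1.32, highest -0.99) and a hybrid position of 0.71. Its hybrid was -0.93 ± 0.28 against D. melanogaster (lowest -1.21, median -1.02, highest -0.53) and 0.37 ± 0.14 against D. simulans (lowest 0.13, median 0.40, highest 0.49), with no array across 0 (SD, n = 6 each).

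The synaptic gene unc-13 (chromosome 4), whose product primes vesicles for release, rested on fewer and less even values. D. simulans differed from D. melanogaster by -1.37 ± 0.93 (SD, n = 6), with a lowest value of -2.05, a median of -1.67 and a highest of 0.47. The single positive value came from replicate 2, the array with the widest spread of its pair, and without it the mean was -1.73. The hybrid was -0.27 ± 0.40 against D. melanogaster (SD, n = 6; lowest -0.76, median -0.28, highest 0.30) and 0.78 ± 0.47 against D. simulans (SD, n = 4; lowest 0.17, median 0.83, highest 1.30). The position was 0.20, or 0.16 without replicate 2.

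Besides Cdlc2, the members with a symbol nearest the log2 midpoint were cass, CG4287 and CG5181. A small parental difference, as in CG5181, favours a middle position under the rule by construction. CG4287 (chromosome 3R) was -1.04 ± 0.21 between the parents (lowest -1.46, median -0.97, highest -0.89). Its hybrid was -0.56 ± 0.23 against D. melanogaster (lowest -0.99, median -0.52, highest -0.30) and 0.37 ± 0.12 against D. simulans (lowest 0.20, median 0.40, highest 0.49) (SD, n = 6 each). Its position was 0.54, and none of its 18 arrays changed sides. CG5181 (chromosome 2L) was -0.52 ± 0.31 between the parents (lowest -1.09, median -0.46, highest -0.23). Its hybrid was -0.23 ± 0.37 against D. melanogaster (lowest -0.91, median -0.07, highest 0.08) and 0.28 ± 0.29 against D. simulans (lowest -0.11, median 0.25, highest 0.71), so single arrays crossed 0 on both sides (SD, n = 6 each).

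The gene cass (chromosome 2L) encodes a homologue of apoptosis inhibitor 5, and its position differed between the title number sets. It was -0.82 ± 0.45 between the parents (lowest -1.30, median -0.83, highest -0.31). The hybrid was -0.41 ± 0.65 against D. melanogaster (lowest -1.42, median -0.18, highest 0.15) and 0.31 ± 0.56 against D. simulans (lowest -0.45, median 0.47, highest 0.87) (SD, n = 6 each). In title numbers 14 to 18 the hybrid was 0.10 against D. melanogaster (n = 3) and 0.83 against D. simulans (n = 2, both with the hybrid in channel 1), so it lay just outside the range beyond D. melanogaster. In numbers 1 to 8 it was -0.92 (n = 3) and 0.05 (n = 4), near D. simulans. The mean position of 0.51 was thus found in neither set.

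**Figure D3:**
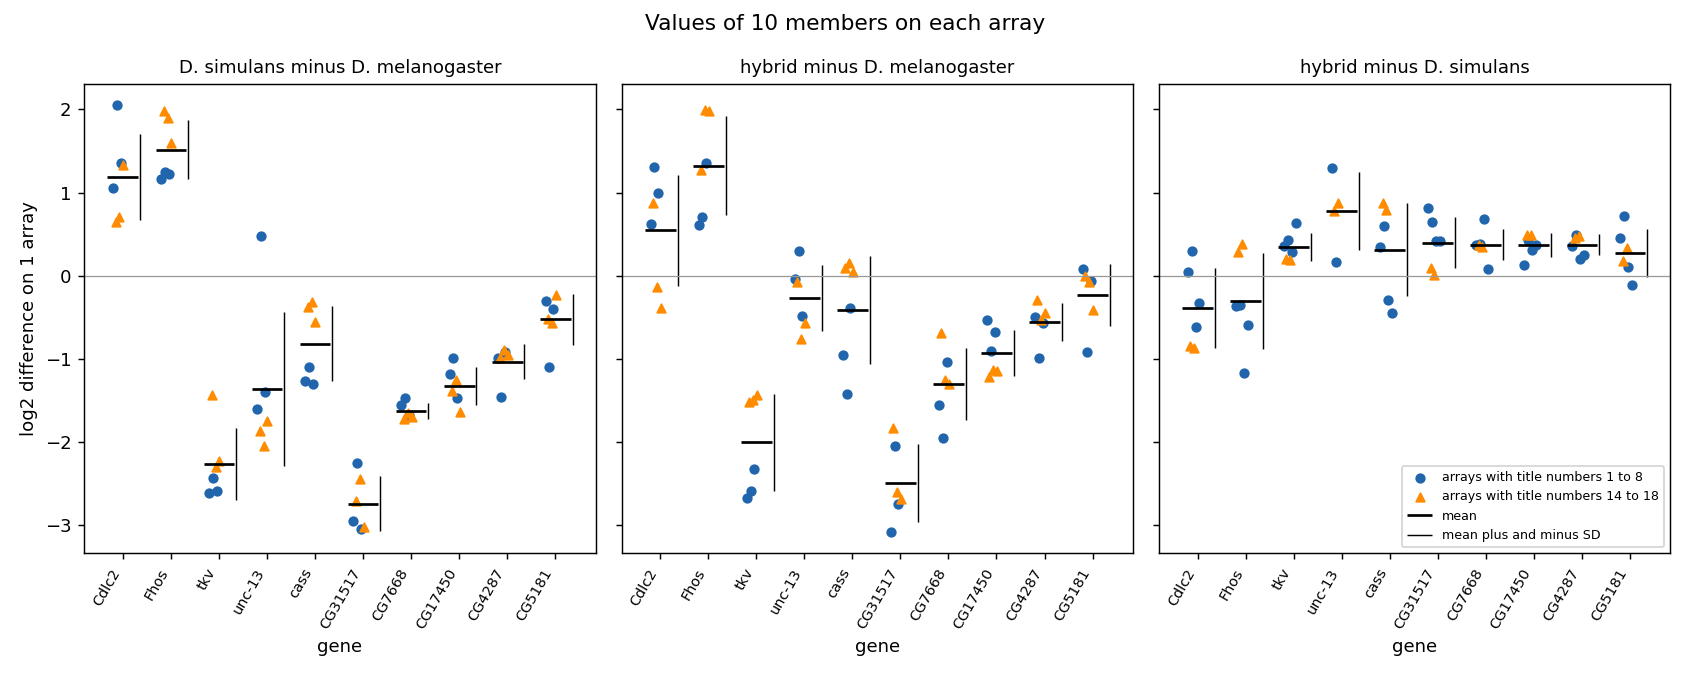
Log2 difference on each array (y axis) of the 10 members described array by array (x axis), in panels for D. simulans minus D. melanogaster, hybrid minus D. melanogaster and hybrid minus D. simulans; points are arrays by title number set, and bars are the mean with a line for plus and minus 1 SD. In tkv, CG31517, CG7668, CG17450 and CG4287 no point crosses 0 in any panel, while Cdlc2, Fhos, unc-13, cass and CG5181 have points across it in 1 or 2 panels.

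The other 8 members lower in D. simulans with a symbol had parental differences of -1.26 to -0.54. They were CG14969, CG12093 and CG11811 on chromosome 3L, CG8321 on 2R, CG6023, CG1812 and tyf on X, and CG31683 on 2L. CG8321 had a wide gap on the D. simulans side, at 0.97 ± 0.31, with -1.19 ± 0.19 between the parents and -0.40 ± 0.22 for the hybrid against D. melanogaster (SD, n = 6 each). CG14969 was near D. simulans instead, at a position of 0.77, with -1.26 ± 0.31 between the parents. Its hybrid was 0.28 ± 0.61 against D. simulans (SD, n = 6; lowest -0.32, median 0.16, highest 1.40). Without the array at 1.40, replicate 3 of that pair, CG14969 missed the rule. CG12093 combined a small spread, -0.90 ± 0.12 between the parents (SD, n = 6), with a position of 0.38. CG6023 gave -0.995 ± 0.22 between the parents and a position of 0.28, and CG31683 gave -0.99 ± 0.20 and 0.37 (SD, n = 6 each). The smaller parental differences of CG11811, at -0.74 ± 0.26, and CG1812, at -0.62 ± 0.28 (SD, n = 6 each), went with positions of 0.34 and 0.41.

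The clock gene tyf, whose product promotes translation of period, was a member only as a mean of probes. It has 2 probes. The first averaged -0.35 between the parents with a hybrid 0.22 against D. melanogaster and 0.59 against D. simulans, which is a hybrid above both parents. The second averaged -0.73 between the parents with -0.66 and 0.14 for the hybrid, which is a hybrid near D. simulans. Neither probe alone met the rule, and the gene mean of -0.54 ± 0.24 between the parents and -0.22 ± 0.16 for the hybrid against D. melanogaster (SD, n = 6 each) fell just inside it.

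**Figure D4:**
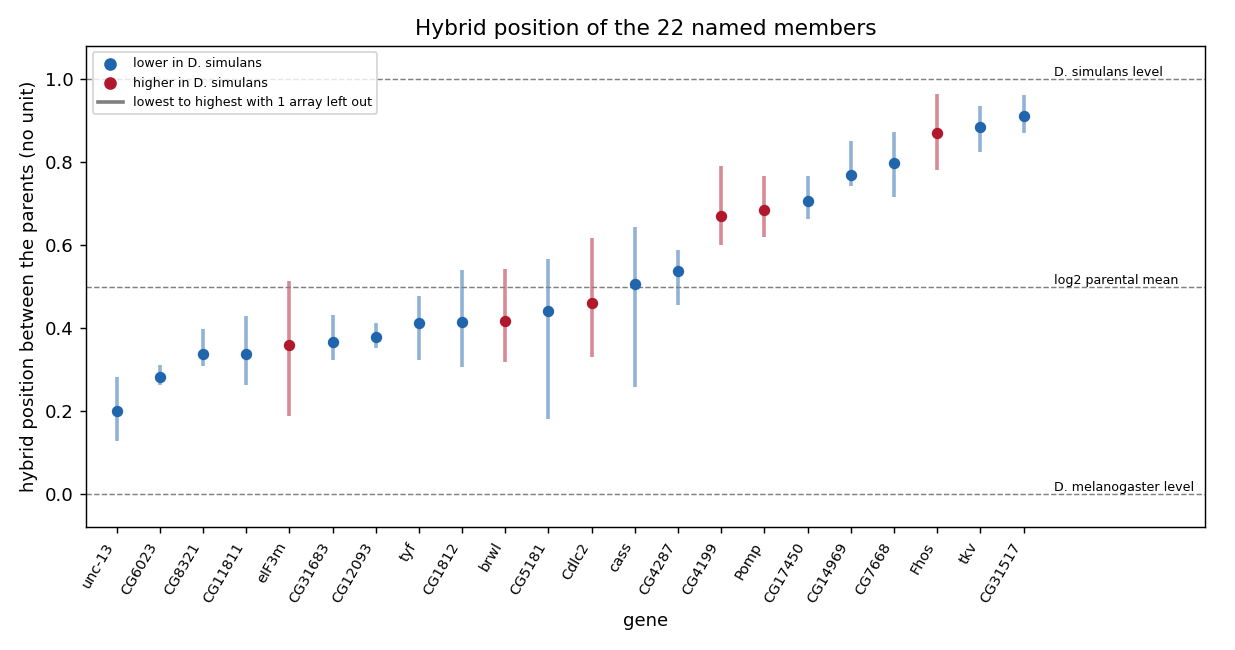
Hybrid position (y axis, no unit, 0 for D. melanogaster and 1 for D. simulans) of the 22 members with a symbol (x axis), from unc-13 at 0.20 to CG31517 at 0.91; bars run from the lowest to the highest value with 1 array left out. The bars of neighbouring genes overlap along most of the order.

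Order among neighbours in hybrid position was not resolved. The bars for 1 array left out ran from 0.331 to 0.616 for Cdlc2, from 0.258 to 0.644 for cass and from 0.181 to 0.566 for CG5181. At the ends, unc-13 ran from 0.128 to 0.283 and CG31517 from 0.869 to 0.961. Next to CG31517, tkv ran from 0.825 to 0.935. These bars show the pull of single arrays and are narrower than the scatter between arrays. Carried over from the array SDs, the SD of the position was 0.596 for Cdlc2, 0.320 for unc-13, 0.308 for tkv and 0.203 for CG31517. Array SDs of members had medians of 0.239 for D. simulans against D. melanogaster, 0.271 for the hybrid against D. melanogaster and 0.322 for the hybrid against D. simulans, against 0.207, 0.273 and 0.297 over all features. In 38 of 82 members the hybrid's distance to at least 1 parent was smaller than the SD of its arrays. The rule accepts gaps just over 0.2, which is below the median hybrid SDs of all features. The count thus follows in part from the threshold, and the share over all features was not counted.

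Array-by-array agreement varied by pair. All measured arrays lay on 1 side of 0 in 80 of 82 members for D. simulans against D. melanogaster, where 42.2% of all features did. That held in 59 of 82 for the hybrid against D. melanogaster and 48 of 82 for the hybrid against D. simulans, where all features gave 70.2% and 66.3%. In 33 of 82 members it held in all 3 pairs, against 24.6% of all features. The size rule used the same values, so nothing is read from these shares. limma's joint fit placed the hybrid between the parents at an adjusted p of 0.05 in all 3 contrasts in 71 of 82 members, where 2.21% of all features passed; this too used the chosen values.

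Where the hybrid stood against the arithmetic mean of the parents depended on how the ratio is read, so values are given for both readings. With channel 1 over channel 2, the hybrid differed from that mean by a median of -0.08 on the log2 scale over the 82 members, and with channel 2 over channel 1 by -0.05. It was within 0.2 of the arithmetic mean in 53 members in the first reading and in 46 in the second, and within 0.2 of the log2 mean in 51 in either. It was closer to the arithmetic mean than to the log2 mean in 34 members in the first reading and in 39 in the second. These counts come from the values that chose the members. Where the parents differ little, a hybrid more than 0.2 inside both lies near their mean by construction. Closeness to additivity is therefore not read from these counts. CG31517 differed from the arithmetic mean by -1.70 in the first reading and by 0.56 in the second, and tkv by -1.28 and 0.47. Fhos gave 0.37 and -0.75, while Cdlc2, at -0.17 and -0.07, was below the arithmetic mean in both. Direction and size of the departure in CG31517, tkv and Fhos thus rested on a reading that the labels do not settle.

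The direct difference between the parents and the difference through the hybrid should be equal if ratios are additive on the log2 scale. In members they differed by a median of 0.094 in size, against 0.115 over all features. The upper quartile was 0.155 in members and 0.199 over all features, and 10 of 82 members were past 0.2. The rule used the same 3 means and asked for signs that go together, so nothing is read from this comparison. In Cdlc2 the gap was 0.26. The position computed through the hybrid alone had a median of 0.559.

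The channel term, which compares the dyes' channels over balanced orientations and plays no part in choosing members, was tested. In limma's joint fit it passed an adjusted p of 0.05 in 6 of 82 members, or 7.32%, and in 9.24% of all features. Channel 1 was higher in 4 members and 5.91% of all features, and channel 2 in 2 members and 3.32%. The sole member with a symbol was CG5181, at -0.20 ± 0.06 (SE, limma adjusted p = 0.0400). For Cdlc2 the term was -0.21 ± 0.11 (SE, limma adjusted p = 0.242). The count ranged from 2 to 9 when single arrays were left out.

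The 3 arrays with 1 RNA in both channels showed how far a value can stray with no difference to measure. The hybrid self-comparison was past 0.2 in 14 of 82 members, against 18.1% of features, the D. simulans one in 20 of 81, against 23.1%, and the D. melanogaster one in 20 of 81, against 24%. All 3 were past 0.2 on the same side in 4 members, against 3.03% of features. Cdlc2 was past it on each, at -0.22, -0.32 and -0.46 in the hybrid, D. simulans and D. melanogaster self-comparisons. A self-comparison past 0.2 is as wide as the smallest gap that the rule accepts.

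Members with a symbol lay on all major chromosome arms. Arm 2L held 7 of 22, or 31.8%, against 17.2% of all named genes tested, and 3R held 2 of 22, or 9.09%, against 24.9%. Chromosome X held 5 of 22, or 22.7%, against 18.4%, and 4 of the 5 were lower in D. simulans. Nothing is read from these small counts. On the array grid, 6 of 84 member positions lay beside another member, or 7.14%, all of them without a symbol, and 2.75% of tested positions lay beside a member.

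Thresholds cut through continuous values. Just inside the parental threshold lay CG5181 at a size of 0.52 and brwl at 0.53, and just outside lay CG12204 and CG4004, both at 0.499. For the hybrid against D. melanogaster, tyf and brwl lay inside at 0.22 each, and caly at 0.197 and dj-1beta at 0.14 lay outside. For the hybrid against D. simulans, Pomp at 0.25 and CG5181 at 0.28 lay inside, and SCAR at 0.17 and Mtap at 0.15 lay outside.

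Membership was steady for some genes and not for others. Under every left-out array 47 of 82 members met the rule, 11 of them with a symbol. Under both title number sets 37 of 82 met it, and under both channel orientations 40 of 82. Under all 18 left-out arrays and 9 other settings that kept the size thresholds, 21 members met it, of which CG12093, CG17450, CG4287, CG6023, CG7668 and CG8321 had a symbol. Neither Cdlc2 nor tkv, Fhos, unc-13 or cass was among these.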

How the data were processed

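The authors deposited 1 linear ratio of the 2 channels per probe position and array. How spots were scanned, background-corrected, normalized or filtered is not given in the sources used for this text, channel intensities were not used, and the number of arrays limits the precision. Groups and channel contents came from the labels, and replicates were numbered as deposited. All sample columns were used (0 left unused).

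Of 6101 positions, 1943 had 1 symbol, 67 several and 4091 none. Symbols, all 1943 matched, and chromosomes came from a RefSeq table (assembly Release 6 plus ISO1 MT). Ratios were put on the log2 scale, centred on each array's median and averaged over the probes of a gene. limma 3.58.1 in R 4.3.3 fitted 1 model to the 18 arrays with the hybrid and D. simulans each against D. melanogaster and a channel term, with Benjamini-Hochberg adjustment over 4753 features; it was tested on simulated data. Every member with 1 symbol is named, and array values are given for Cdlc2, the 6 named members with the largest parental difference and the 4 with a position nearest 0.5. The members, the dynein and dynactin list and the tests were chosen with earlier results of these data known. Alternatives changed centring, scaling, thresholds, missing values, orientation, title numbers and single arrays. No sequence was used here.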

Additional observations from a re-analysis of the deposited data

Results flagged for a closer look

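In 5 of 66 groups of arrays (22 members with a symbol in 3 pairs, 65 groups of 6 values and 1 of 4), 1 array stood far from the others by Dixon's criterion, which chance passes in about 1 of 20 groups. Of these, 3 came from replicate 2 of D. simulans against D. melanogaster, the array with the widest spread of its pair. On it unc-13 was at 0.47, where the nearest other array gave -1.40. CG14969 was at -1.87, with the nearest at -1.26, and CG4287 was at -1.46, with the nearest at -0.99. On replicate 3 of the same pair tkv was at -1.44, with the nearest at -2.23. For the hybrid against D. simulans, CG6023 was at 1.40 on replicate 3, with the nearest at 0.92. What sets these arrays apart was not tested.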

How the results depend on the processing

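No paired analysis was possible because replicates were numbered as deposited, so a replicate number links no arrays of different groups; title numbers, which some arrays share, were used as a random block for the channel term. The median hybrid position of the 82 members was 0.647 with no array median subtracted. It was 0.204 with arrays scaled to a common spread, which narrows hybrid arrays and widens parental ones. That scaling moved 34 of 46 values of single genes by more than their spread. The 82 members became 40 with a parental difference of at least 1 (32 lower and 8 higher in D. simulans) and 44 with distances over 0.3 (35 and 9). Higher members numbered 34 with distances over 0.1, 30 in title numbers 1 to 8 and 31 by limma's call of all 3 contrasts. By orientation there were 76 members (49 lower, 27 higher) with the first-named RNA in channel 1 and 90 (68 and 22) with it in channel 2. Leaving out single arrays gave 75 to 88 members, of which 69 to 82 were among the 82. The lower members numbered 58 to 68 and the higher ones 17 to 23. The position of cass was -0.24 in title numbers 14 to 18, and that of CG5181 was -0.013 with the first-named RNA in channel 2. The causes were not tested.

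The channel term passed limma's test in 6 of 82 members, in 0 with scaled arrays (1 at an unadjusted p under 0.05, and 4.46% of all features after adjustment), in 4 with the title number as a random block and in 2 to 9 with single arrays left out. It passed in 2 without replicate 6 of the hybrid against D. melanogaster. It passed in 3 without replicates 1 or 3 of that pair, replicate 6 of D. simulans against D. melanogaster, or replicates 5 or 6 of the hybrid against D. simulans, each left out alone. Signal over background is unknown, and the technical repeats limit every statement to these pools.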
